A study of Mus musculus with 2 samples.

Results

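The data described here concern de novo lipogenesis, the pathway by which hepatocytes build fatty acids from acetyl-CoA, in single-cell RNA-seq libraries of livers from WT mice and from mice lacking miR-33 in hepatocytes (HKO). Of the 32285 genes counted, 10 were followed: the regulators Srebf1 and Mlxipl, the enzymes Acly, Acaca, Acacb, Fasn, Me1 and Elovl6, the lipogenic nuclear protein gene Thrsp and the lipid droplet protein gene Pnpla3. The genes were selected on measured values, since their ratios in hepatocytes of these same libraries were known when the list was drawn up, so the ratios between genotypes are a description and no test was made.

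SREBP-1c, a product of Srebf1, is the transcription factor that insulin uses to switch on fatty acid synthesis in the liver, and it is made as a membrane-bound precursor that must be carried to the Golgi and cut before it enters the nucleus. ChREBP, the product of Mlxipl, does the same in response to carbohydrate. ATP citrate lyase (Acly) supplies cytosolic acetyl-CoA, the acetyl-CoA carboxylases (Acaca, Acacb) make malonyl-CoA, fatty acid synthase (Fasn) builds palmitate with NADPH that malic enzyme (Me1) helps to supply, and Elovl6 lengthens palmitate to stearate.

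There were 2 libraries, 1 from WT littermates and 1 from HKO mice, each made from a pool of 3 livers of male mice. HKO mice carried loxP-flanked miR-33 alleles and a Cre recombinase driven by the albumin promoter, which is active in hepatocytes, whereas WT littermates kept miR-33. Both groups received CD-HFD, a feed rich in fat and with no added choline, which was started at 8 weeks of age and continued for 6 months, and the animals of the study were fasted before they were killed. Hepatocytes and sorted non-parenchymal cells were mixed in equal numbers before droplet capture with 10x Genomics 3' chemistry, in which every captured transcript carries a unique molecular identifier (UMI). Each genotype had 1 library, so animal, pool, preparation and genotype cannot be told apart, and every interval below is a 95% interval for counting error only. Mature microRNAs are not captured by this assay, so the deletion itself was not checked here.

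The deposited tables held 30078 WT and 20000 HKO barcodes with medians of 2658 and 1130 UMIs. The commonest depth of a WT barcode was 2565 UMIs and that of an HKO barcode 790 UMIs, and hepatocyte transcripts were present at every depth, so shallow barcodes may hold free RNA and are described apart from deep ones. Hepatocyte-like barcodes were those of at least 5000 UMIs in clusters without markers of other cell types, 1942 in WT and 1655 in HKO. All 10 hepatocyte markers (Alb, Apoa1, Ttr and others) were found in at least 86.0% of them in either library. WT barcodes of this kind had a median of 20068 UMIs and a median mitochondrial share of 11.8%, against 10685 UMIs and 13.5% for HKO barcodes. Summed erythroid transcripts, which mark blood, stood at 736 UMIs per 1000000 (CPM) in WT against 113 in HKO, B and plasma cell transcripts at 39.0 and 13.2 CPM and neutrophil transcripts at 1.24 and 16.7 CPM, and their part in the results was not tested. Unmarked barcodes under 5000 UMIs numbered 20133 in WT and 12356 in HKO, with medians of 2567 and 958 UMIs.

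The sequences of the locus were taken from RefSeq on GRCm38.p6. The deleted microRNA lies at chr15:82198127-82198147 on the plus strand, inside Srebf2, the gene of the sterol-regulated relative of SREBP-1. Its mature sequence is shown because it is the molecule removed in HKO mice, with the seed (bases 2 to 8) in capitals.

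mmu-miR-33-5p: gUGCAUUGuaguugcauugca

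The 7 letters CAATGCA, which pair with this seed, occurred in 7.11% of 21039 annotated mouse 3'UTRs (the longest of each protein-coding gene, GENCODE M21). Among the 10 lipogenic genes they occurred only in the 3'UTR of Acaca, at base 1917 of 1968, shown here with the match in capitals.

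Acaca 3'UTR, bases 1907 to 1933: ggcttcagtcCAATGCActcttctcac

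Srebf1 and the other 8 genes held no such letters in that region. A match describes letters and not a working site, and a missing match says only that these letters are not in that region.

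RefSeq gave 14 promoter windows for the 10 genes, each from 250 bases before to 50 after an annotated start. They were searched on both strands for TCACNCCAC (a sterol regulatory element), CACGTG (an E-box), CCAAT (an NF-Y box) and GGGCGG (an Sp1 box), letters that SREBP-1 and its partner factors are known to bind. The Srebf1 windows are shown because Srebf1 differed the most between the libraries, the Fasn and Thrsp windows because these genes came next, and a Mlxipl window because it held the only sterol regulatory element. Capitals mark all 4 kinds of motif.

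Srebf1, chr11:60222532-60222831, minus strand: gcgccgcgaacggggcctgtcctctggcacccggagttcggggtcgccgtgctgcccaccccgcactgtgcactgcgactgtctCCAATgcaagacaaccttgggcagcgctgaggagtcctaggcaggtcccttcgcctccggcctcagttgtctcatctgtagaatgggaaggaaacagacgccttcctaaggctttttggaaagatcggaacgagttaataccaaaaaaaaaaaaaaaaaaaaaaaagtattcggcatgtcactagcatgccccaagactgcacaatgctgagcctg

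Srebf1, chr11:60220578-60220877, minus strand: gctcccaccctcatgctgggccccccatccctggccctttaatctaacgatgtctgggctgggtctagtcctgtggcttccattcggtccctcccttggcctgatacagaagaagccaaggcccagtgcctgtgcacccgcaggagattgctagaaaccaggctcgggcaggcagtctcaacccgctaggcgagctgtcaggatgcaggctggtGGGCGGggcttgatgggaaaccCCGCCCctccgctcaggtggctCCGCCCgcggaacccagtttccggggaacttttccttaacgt

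Srebf1, chr11:60210422-60210721, minus strand: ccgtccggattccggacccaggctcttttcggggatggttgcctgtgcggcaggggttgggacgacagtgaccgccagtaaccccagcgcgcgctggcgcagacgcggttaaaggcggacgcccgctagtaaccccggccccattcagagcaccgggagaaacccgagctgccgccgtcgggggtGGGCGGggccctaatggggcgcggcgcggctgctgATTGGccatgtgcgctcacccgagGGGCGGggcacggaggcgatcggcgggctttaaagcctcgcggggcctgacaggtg

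Fasn, chr11:120824498-120824797, minus strand: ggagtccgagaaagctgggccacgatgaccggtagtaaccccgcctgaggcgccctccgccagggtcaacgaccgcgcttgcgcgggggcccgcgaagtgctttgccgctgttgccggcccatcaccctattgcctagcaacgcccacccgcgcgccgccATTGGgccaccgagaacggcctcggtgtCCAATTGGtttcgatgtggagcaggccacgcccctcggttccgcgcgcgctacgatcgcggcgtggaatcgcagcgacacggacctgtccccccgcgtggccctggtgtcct

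Thrsp, chr7:97417501-97417800, minus strand: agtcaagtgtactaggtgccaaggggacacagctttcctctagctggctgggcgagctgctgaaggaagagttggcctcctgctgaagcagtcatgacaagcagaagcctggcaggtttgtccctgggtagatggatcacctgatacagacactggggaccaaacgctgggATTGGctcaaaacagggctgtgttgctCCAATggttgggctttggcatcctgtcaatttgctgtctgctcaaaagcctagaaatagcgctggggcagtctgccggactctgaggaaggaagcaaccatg

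Mlxipl, chr5:135106641-135106940, plus strand: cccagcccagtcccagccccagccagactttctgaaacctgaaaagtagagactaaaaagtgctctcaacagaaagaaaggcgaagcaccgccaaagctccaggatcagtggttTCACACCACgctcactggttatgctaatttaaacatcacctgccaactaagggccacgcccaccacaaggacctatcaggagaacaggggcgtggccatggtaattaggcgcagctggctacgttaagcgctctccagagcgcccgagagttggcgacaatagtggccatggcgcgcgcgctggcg

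CCAAT occurred in 9 of the 14 windows, covering 8 of the 10 genes, against 37.4% of all 32851 mouse windows. In Fasn there were 3 CCAAT matches, of which 2 overlap in the run CCAATTGG. GGGCGG occurred in 6 windows of 5 genes, against 35.7% of all windows. The sterol regulatory element occurred in the Mlxipl window shown, as TCACACCAC, and in 1.24% of all windows, and CACGTG occurred in the other Mlxipl window and in 7.15% of all windows. The windows of Acaca and Elovl6 held none of the 4 motifs. The only Acaca window (chr11:84195188-84195487) lay well inside the gene, which begins at 84129672 on the plus strand in GENCODE M21. The only Acacb window (chr5:114165268-114165567) likewise lay inside its gene, which begins at 114146535. The first annotated starts of these 2 genes were therefore not searched.

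Srebf1 was the lipogenic gene with the lowest ratio between the libraries in hepatocyte-like barcodes. The gene (ENSMUSG00000020538) lies on chromosome 11 from 60199089 to 60222581 on the minus strand of GRCm38. In GENCODE M21, 7 of the 10 lipogenic genes overlap a gene on the opposite strand (Rai1 for Srebf1) and 6 overlap a small gene on their own strand, and whether UMIs of such partners are in their counts was not tested. The WT library held 7555 of its UMIs, or 154 CPM (150 to 157), and the HKO library 686, or 33.0 CPM (30.5 to 35.5). The level in HKO was 0.215 times that in WT (0.198 to 0.232), or 4.66-fold lower, the 7th lowest ratio of the 7091 genes with a mean of at least 10 CPM over both libraries. Mlxipl, which encodes ChREBP, had 150 CPM in WT against 112 in HKO, a ratio of 0.745 (0.711 to 0.781). Srebf1 was thus lower in HKO by far more than Mlxipl, whose direction depended on the barcodes taken, with a ratio of 1.04 in barcodes of at least 2000 UMIs.

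The enzymes of the pathway spread widely. Fasn was counted at 111 CPM in WT against 29.98 in HKO, with a ratio of 0.271 (0.249 to 0.295), the 11th lowest of the 7091 genes of at least 10 CPM. Acaca, the carboxylase that feeds fatty acid synthesis, had 172 CPM in WT against 79.1 in HKO, a ratio of 0.460 (0.436 to 0.485). Elovl6 had 74.1 and 45.8 CPM, a ratio of 0.618 (0.575 to 0.664). Each of these 3 enzymes, which make and use malonyl-CoA, was at least 1.5-fold lower in HKO. Elovl6 did not keep that size in barcodes of at least 2000 UMIs (ratio 0.705) or as a mean over depth ranges (0.671).

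Acly and Me1, which supply acetyl-CoA and NADPH, lay closer to WT. Acly had 106 CPM in WT against 84.0 in HKO (ratio 0.794, 0.751 to 0.838). Me1 had 125 and 109 CPM (ratio 0.874, 0.833 to 0.917). Acacb, the carboxylase of the mitochondrial outer membrane whose malonyl-CoA restrains fatty acid oxidation, had 10.8 CPM in WT against 10.6 in HKO. Its ratio of 0.982 had an interval of 0.836 to 1.15 that includes 1, so counting error alone covers the difference.

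Thrsp, also called Spot 14, whose protein accompanies lipogenic gene expression, had 172 CPM in WT against 64.8 in HKO. The ratio was 0.376 (0.355 to 0.398), the 25th lowest of the same 7091 genes. Pnpla3, a lipid droplet protein gene that follows SREBP-1c and carbohydrate, was barely counted, with 100 UMIs in WT and 22 in HKO (2.03 and 1.06 CPM). The ratio of 0.520 (0.312 to 0.832) rests on few barcodes, since the 1% of HKO barcodes with the most Pnpla3 held 95.5% of its UMIs, and without the top 1% of barcodes in each library it was 0.0402.

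Of the 9 lipogenic genes that reached 10 CPM, 5 were at least 1.5-fold lower in HKO (Srebf1, Fasn, Thrsp, Acaca and Elovl6) and 0 were that much higher. Pnpla3 did not reach 10 CPM. Over the 7091 genes, 4.5% were at least 1.5-fold lower and 2.33% at least 1.5-fold higher, and nothing is read from this background because the genes were chosen from the same contrast. The median log2 ratio of the 10 genes was -0.82, against -0.01 for all genes.

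**Figure D1:**
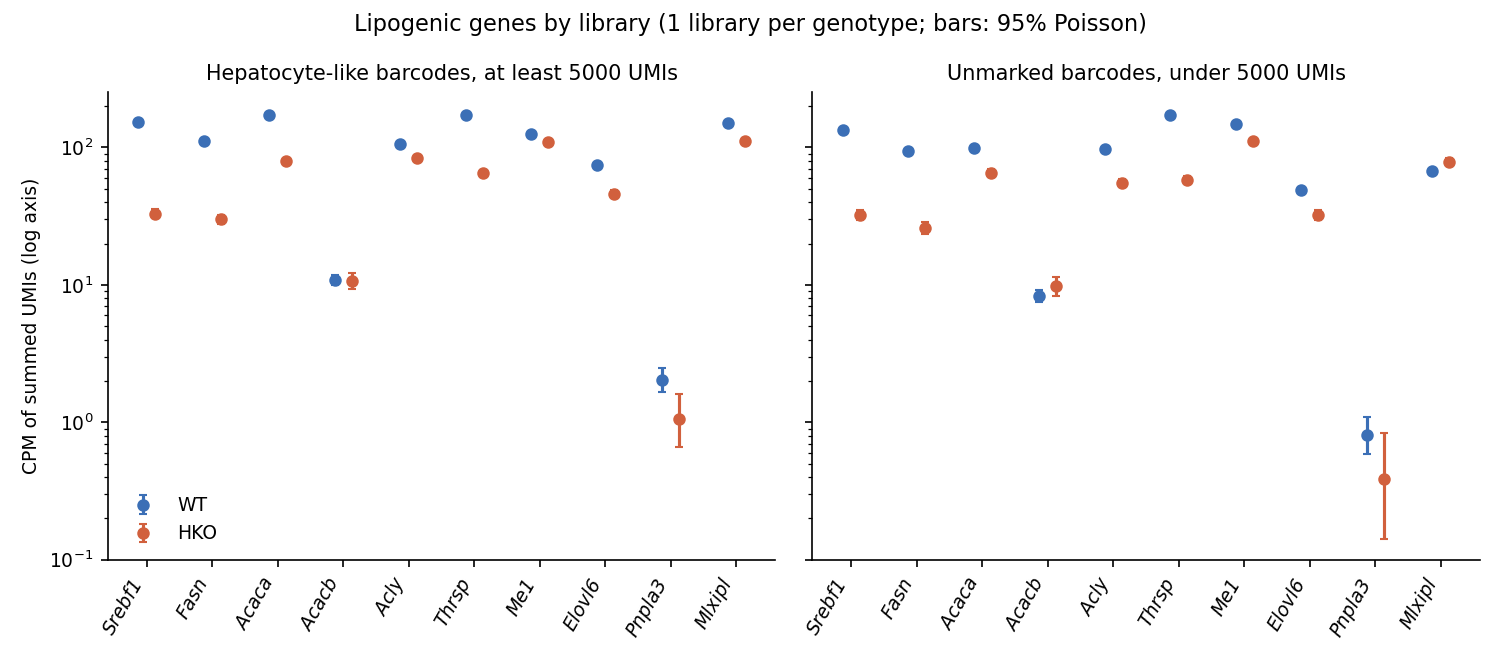
Level of each lipogenic gene in CPM (log axis) in the WT library (blue) and the HKO library (orange), over hepatocyte-like barcodes of at least 5000 UMIs (left) and unmarked barcodes under 5000 UMIs (right), with 95% Poisson intervals as bars. Srebf1, Fasn and Thrsp show the widest gaps in both panels (ratios of 0.215, 0.271 and 0.376 on the left), Acacb overlaps on both sides, and Mlxipl changes order.

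In the shallower barcodes the ratios of the most reduced genes were close to those in deep ones. Srebf1 had 134 CPM in WT against 32.2 in HKO (ratio 0.241, 0.220 to 0.264), Fasn 94.2 and 26.1 CPM (ratio 0.277, 0.2497 to 0.307) and Thrsp 174 and 57.8 CPM (ratio 0.333, 0.310 to 0.356). Acaca had 98.9 and 65.3 CPM, and its ratio of 0.661 (0.617 to 0.707) was nearer to 1 than in deep barcodes. Acly had 96.9 and 55.2 CPM, and its ratio of 0.569 (0.529 to 0.612) was farther from 1.

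Elovl6 (ratio 0.652) and Me1 (ratio 0.750) were also lower, and Pnpla3 had only 42 UMIs in WT and 6 in HKO. Mlxipl went the other way, with 67.5 CPM in WT against 78.9 in HKO, a ratio of 1.17 (1.10 to 1.25). Acacb had 8.31 and 9.74 CPM, with an interval of the ratio from 0.967 to 1.41. Of the 8 lipogenic genes that reached 10 CPM here, 6 were at least 1.5-fold lower and 0 were that much higher. Over 7017 genes the shares were 12.1% lower and 3.88% higher, and the median log2 ratio of all genes was -0.19, so the shallow ratios lie on a lower baseline.

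The difference in Srebf1 was present at every depth. Across 6 depth ranges from under 1000 to at least 20000 UMIs its ratio lay between 0.191 and 0.260. Fasn stayed between 0.240 and 0.374 and Thrsp between 0.301 and 0.433. For these 3 genes every interval lay below 1.

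Other genes changed with depth. Acaca had a ratio of 0.710 at 5000 to 10000 UMIs, 0.371 at 10000 to 20000 UMIs and 0.407 at 20000 UMIs or more. Elovl6 had 0.945 (0.780 to 1.15) in the first of these ranges and 0.514 and 0.624 in the next ones. Me1 had 1.09 (0.954 to 1.25), then 0.851 and 0.764. Below 5000 UMIs the 3 genes were lower in HKO as well, with ratios at 2000 to 5000 UMIs of 0.613 (0.539 to 0.695) for Acaca, 0.666 (0.558 to 0.789) for Elovl6 and 0.773 (0.703 to 0.847) for Me1. The gap was thus narrowest at 5000 to 10000 UMIs for Elovl6 and Me1, whereas Acaca was lower in HKO on both sides of 5000 UMIs.

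Mlxipl lay on both sides of 1 across the depth ranges. Its ratio was 0.895 (0.565 to 1.51) under 1000 UMIs and 1.02 (0.847 to 1.24) at 1000 to 2000 UMIs, with intervals that include 1. It was 1.73 (1.57 to 1.90) at 2000 to 5000 UMIs, 1.15 (1.02 to 1.29) at 5000 to 10000 UMIs, 0.542 (0.501 to 0.586) at 10000 to 20000 UMIs and 0.522 (0.471 to 0.576) at 20000 UMIs or more. Its level in WT was 67.5 CPM at 2000 to 5000 UMIs and 141 CPM at 20000 UMIs or more, while in HKO it was 117 and 73.7 CPM. The range of 2000 to 5000 UMIs held 18301 WT and 1379 HKO barcodes. The commonest depth of WT (2565 UMIs) lies in this range and that of HKO (790 UMIs) below it, so unlike barcodes may be compared there. Acacb had an interval below 1 only at 20000 UMIs or more (ratio 0.676, 0.482 to 0.926). The median log2 ratio of the lipogenic genes was -0.42, -0.92 and -1.12 in the 3 ranges from 5000 UMIs upward, against 0.06, 0.01 and -0.07 for all genes.

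The median mitochondrial share also differed between the libraries within a depth range, with 2.81% in WT and 6.32% in HKO at 2000 to 5000 UMIs. At 5000 to 10000 UMIs it was 7.40% in WT and 14.3% in HKO, and at 10000 to 20000 UMIs 17.4% and 13.6%. The part of this share in the ratios was not tested. It was close at 20000 UMIs or more, with 12.1% and 12.5%, where all 10 ratios lay below 1.

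**Figure D2:**
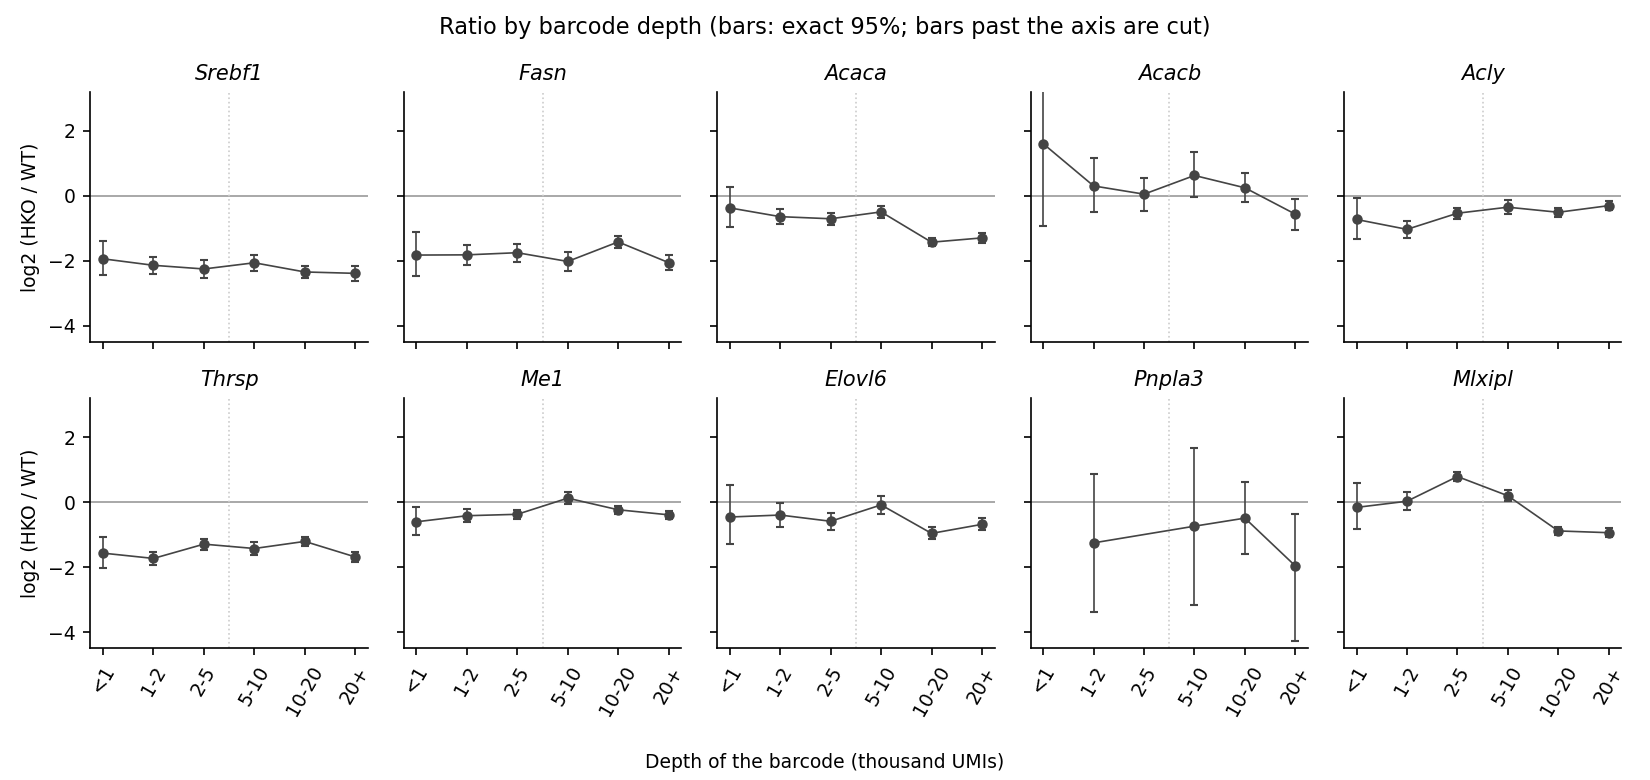
Log2 of the ratio HKO over WT (y axis) of each lipogenic gene by depth range of the barcode (x axis, in multiples of 1000 UMIs), with exact 95% intervals as bars; the dotted line marks 5000 UMIs and ranges with no UMI in either library are not drawn. Srebf1, Fasn and Thrsp stay far below 0 at every depth, whereas Mlxipl lies near 0 under 2000 UMIs, at 1.73 times the WT level at 2000 to 5000 UMIs and at 0.522 times at the greatest depth.

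Hepatocytes differ along the lobule from the portal vein to the central vein, so the hepatocyte-like barcodes of each library were ranked by pericentral (Glul, Cyp2e1 and others) minus periportal (Cyp2f2, Hal and others) transcripts and divided into 3 groups of equal number, 647 or 648 barcodes each in WT and 551 or 552 in HKO. The zone groups were not equal between libraries. Glul, the pericentral glutamine synthetase, stood at 415 CPM in the pericentral group of WT and 1153 CPM in that of HKO, and Cyp2e1 at 3693 and 5055 CPM. Because of this, levels are compared first within a library.

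In WT, 7 of the 10 genes had a higher level in the pericentral than in the periportal group, 6 of them with an interval above 1, and 3 had an interval below 1. Over all 7091 genes, which do not include Pnpla3, 55.5% had a higher pericentral level, 34.7% an interval above 1 and 25.9% an interval below 1, with a median log2 ratio of 0.04. Acly was the most periportal, with 150 CPM periportal and 70.0 CPM pericentral (ratio 0.468, 0.436 to 0.502). Acaca (213 and 161 CPM, ratio 0.757) and Srebf1 (159 and 135 CPM, ratio 0.849) were also lower pericentrally. Of the 3 genes, Srebf1 was the closest to even across the lobule.

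Fasn had 94.0 CPM periportal and 133 CPM pericentral in WT (ratio 1.42, 1.33 to 1.51), Thrsp 135 and 213 CPM (ratio 1.58) and Acacb 7.48 and 15.6 CPM (ratio 2.09, 1.68 to 2.61). Me1, Mlxipl and Elovl6 were higher by less, with ratios of 1.18, 1.19 and 1.12. Pnpla3 had a ratio of 1.64 with an interval that includes 1 (0.983 to 2.77). The pericentral lean was therefore shared by several enzymes and Thrsp, but not by Acly.

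In HKO the pericentral lean was steeper for 5 of the genes. Thrsp had 32.8 CPM periportal and 119 CPM pericentral (ratio 3.64, 3.16 to 4.21), Fasn 21.2 and 49.1 CPM (ratio 2.31) and Elovl6 32.3 and 64.7 CPM (ratio 2.00). Mlxipl had 70.8 and 139 CPM (ratio 1.96) and Me1 84.4 and 151 CPM (ratio 1.78). The intervals of these 5 genes and of Acaca in HKO lay above those in WT, as did those of 19.4% of the 7091 genes, and the median log2 ratio of all genes was 0.16 in HKO. Acacb, with the highest ratio in WT, was not steeper in HKO (ratio 1.91, 1.39 to 2.64), and the interval of Pnpla3 in HKO (1.21 to 24.7) overlapped that in WT.

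Acly kept its periportal lean in HKO (112 and 49.7 CPM, ratio 0.446), and Srebf1 was also lower pericentrally (33.5 and 27.1 CPM, ratio 0.810, 0.668 to 0.981). Acaca was lower pericentrally in WT and had a ratio of 1.14 (1.01 to 1.29) in HKO, close to the median of all genes there. The steeper lean of the 5 genes goes with the sharper zonation of the markers in HKO given above, whose part was not tested. With zones set by Cyp2e1 and Cyp2f2 alone, 9 of the 10 genes in WT and 8 in HKO were higher pericentrally, and in WT Srebf1 turned from 0.849 to 1.10 and Acaca from 0.757 to 1.02, so the periportal lean of these 2 genes in WT depended on the score. In HKO the ratio of Srebf1 stayed below 1 with that score (0.757).

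Between the libraries, the ratio of Srebf1 was much the same in the periportal, middle and pericentral groups, 0.210, 0.234 and 0.2005. Thrsp had ratios of 0.243, 0.256 and 0.562 and Fasn 0.226, 0.185 and 0.369, so both ratios were highest in the pericentral group. As given above, that group was more strongly pericentral in HKO by Glul and Cyp2e1. The part of this inequality in the ratios by zone was not tested. Mlxipl had 0.504, 0.931 and 0.835. Me1 had 0.715 and 0.799 in the periportal and middle groups and 1.08 (1.01 to 1.17) in the pericentral group. The median log2 ratio of the 10 genes was -1.47 in the periportal, -0.48 in the middle and -0.54 in the pericentral group.

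**Figure D3:**
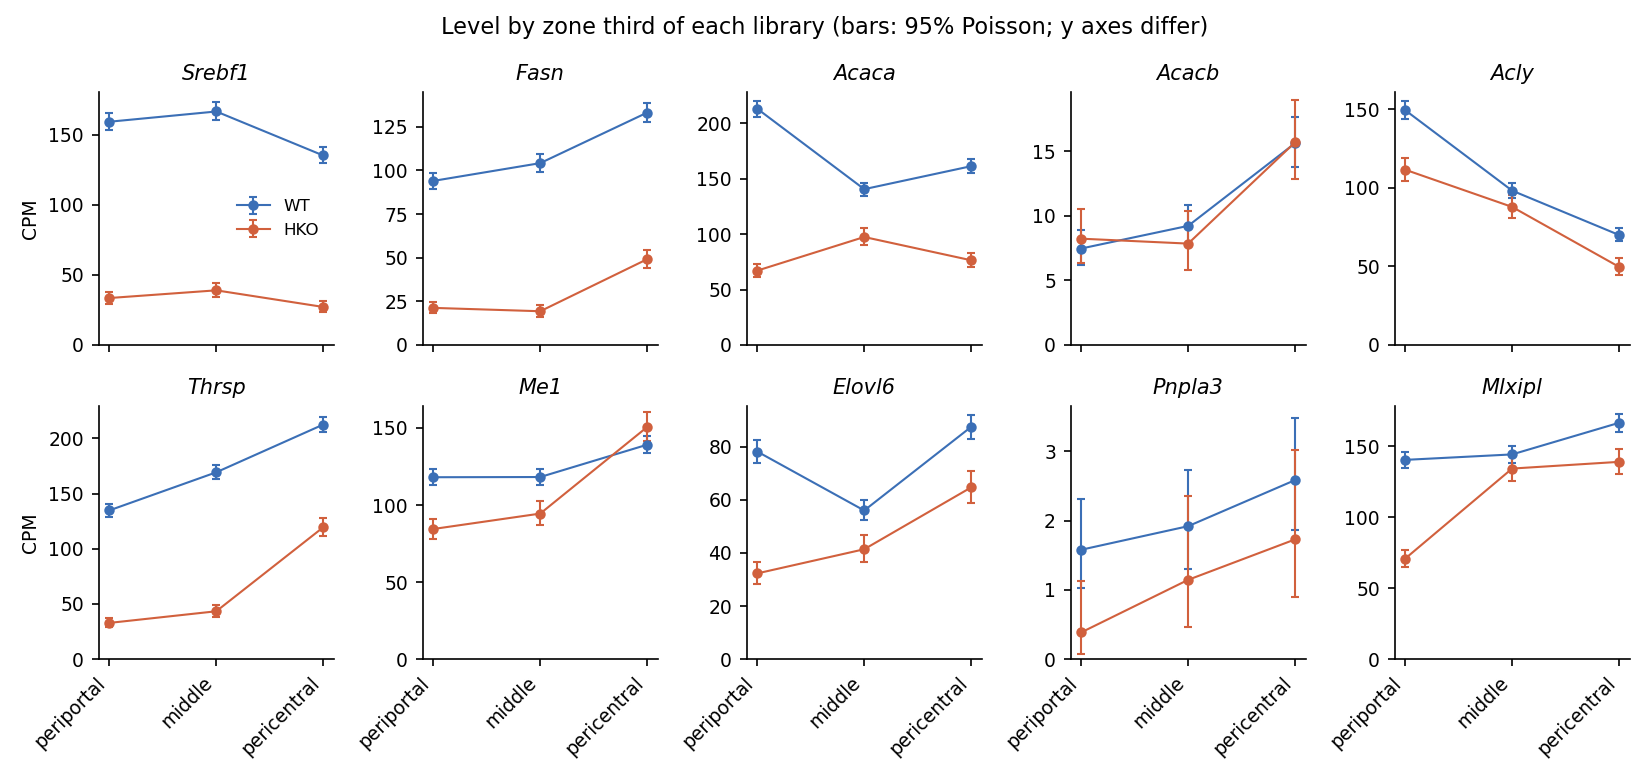
Level in CPM (y axis, from 0, scaled per gene) of each lipogenic gene in the periportal, middle and pericentral groups of hepatocyte-like barcodes in WT (blue) and HKO (orange), with 95% Poisson intervals as bars. Acly falls toward the central vein in both libraries (150 to 70.0 CPM in WT), Thrsp rises (32.8 to 119 CPM in HKO), and the Srebf1 lines lie apart in every group.

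Mitochondrial share, a sign of cell quality, was examined in the same way, in low, middle and high groups with the limits set over both libraries together (8.03% and 17.1%). Srebf1 had ratios of 0.165, 0.256 and 0.252 in these groups, Fasn 0.232, 0.324 and 0.273 and Thrsp 0.486, 0.336 and 0.388. Mlxipl had 1.08 (1.00 to 1.16) in the low group and 0.640 and 0.789 in the others. The low group differed in nuclear RNA (Malat1 and Neat1), with 0.812% of UMIs in WT and 1.37% in HKO.

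To see how the transcripts were spread over single barcodes, every hepatocyte-like barcode was thinned to 5000 UMIs, since the libraries differ in depth. Srebf1 was then found in 966 of 1942 WT barcodes (49.7%, exact binomial interval 47.5 to 52.0%) and in 249 of 1655 HKO barcodes (15.05%, 13.4 to 16.9%). Without thinning the numbers were 1615 and 497 barcodes. Thinned Fasn was found in 34.8% and 11.6% of barcodes, Thrsp in 48.2% and 22.7%, Acaca in 45.2% and 27.2% and Elovl6 in 26.1% and 18.6%. Fewer barcodes with a UMI and fewer UMIs per barcode went together in these genes.

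Acly (38.0% and 31.7%), Me1 (42.2% and 39.1%) and Acacb (4.58% and 5.14%) were found in more nearly equal shares of barcodes. Summed over the 10 genes, a thinned WT barcode held a median of 4 UMIs (quartiles 2 and 7) and a thinned HKO barcode a median of 2 (quartiles 1 and 4). Barcodes without a UMI of any of the genes made up 3.50% of the WT library and 12.2% of the HKO library, and 20.1% of HKO barcodes exceeded the WT median. The distributions overlapped, and each quartile of the HKO distribution lay lower. No small set of barcodes carried Srebf1, since the 1% with the highest counts held 3.08% of its UMIs in WT and 6.85% in HKO.

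**Figure D4:**
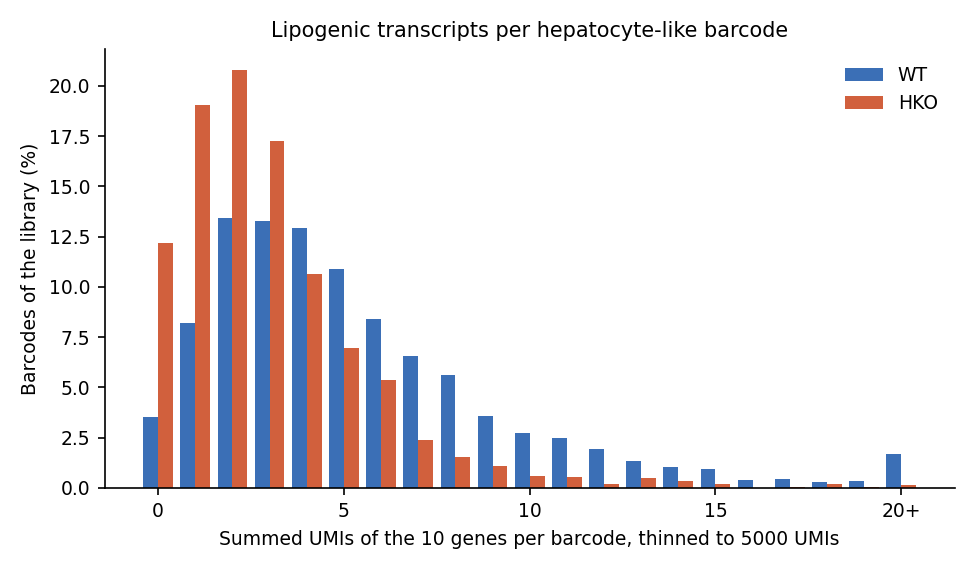
Share of hepatocyte-like barcodes (y axis, % of the library) by the summed UMIs of the 10 lipogenic genes after thinning each barcode to 5000 UMIs (x axis, the last bar collects 20 and more), WT in blue and HKO in orange. The HKO bars are tallest at 2 UMIs and 12.2% of HKO barcodes hold 0, against 3.50% of WT barcodes.

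The genes were also compared between thinned barcodes with and without a Srebf1 UMI inside each library. In WT, barcodes with Srebf1 held 1.53 times as many Acaca UMIs (1.38 to 1.68), 1.48 times as many Mlxipl UMIs (1.33 to 1.63) and 1.26 times as many Fasn UMIs (1.11 to 1.42). In HKO the ratios were 1.66 for Acaca (1.38 to 1.99) and 1.70 for Mlxipl (1.47 to 1.97), while Fasn (0.881, 0.587 to 1.28) and Thrsp (0.813, 0.623 to 1.05) had intervals that include 1. Thrsp in WT had 1.11 (1.01 to 1.23). Alb, which served as a reference, was 1.05 times and 1.10 times as high in barcodes with Srebf1. Acaca and Mlxipl accompanied Srebf1 in both libraries by more than Alb did, which was the only reference gene. Barcodes with and without Srebf1 also differed in median mitochondrial share, 10.9% and 12.1% in WT and 15.7% and 13.2% in HKO. The part of this share was not tested.

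The 18 combinations of library, zone group and depth range (5000 to 10000, 10000 to 20000 and at least 20000 UMIs) were used to look for genes with a pattern like that of Srebf1, as Pearson's r of log2(CPM + 1) over the 2636 genes ranked, those with a mean of at least 50 CPM and the lipogenic genes. The combinations share their libraries, so r is a description without a p. The closest were F2 (prothrombin, r = 0.97), Pdia3 and Pdia6 (protein disulfide isomerases of the endoplasmic reticulum, 0.96 each), Lpin1 (a phosphatidate phosphatase, 0.96) and Hspa5 (the chaperone BiP, 0.95). Their ratios were 0.605, 0.465, 0.367, 0.477 and 0.559. Srebf1 was far lower in every HKO combination, so genes picked for so high an r are lower in HKO by selection, and nothing is read from that direction. Acaca had r = 0.89 (rank 60 of 2636) and Fasn 0.83 (rank 118). Lower values were found for Thrsp (0.73), Mlxipl (0.59), Elovl6 (0.55), Acly (0.50), Pnpla3 (0.47), Me1 (0.22) and Acacb (-0.24). Many other genes thus resembled Srebf1 more than the lipogenic genes did.

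Subtracting each library's mean takes out the mean difference between the libraries but leaves differences in their zone and depth patterns. The closest were then Mfsd2a (0.90), Kyat1 (0.87), Afm (0.87), Il1rap (0.86) and Gna12 (0.86). Acly (0.63), Acaca (0.58) and, less so, Mlxipl (0.30) stayed on the side of Srebf1, whereas Fasn (-0.52) and Thrsp (-0.58) ran opposite to it. Me1 (-0.36), Elovl6 (-0.34), Acacb (-0.34) and Pnpla3 (-0.14) were also negative. Over zone and depth groups, Fasn and Thrsp thus shared the difference between the libraries with Srebf1 but not its pattern after each library's mean was subtracted.

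Alb, a transcript of hepatocytes, was found in every other cell class, so the counts of the lipogenic genes in each other cell class were set beside the number expected if all of it were free RNA. This expectation scaled the unmarked barcodes under 5000 UMIs of the same library to the Alb counts of the class. Alb stood at 36346 CPM in hepatocyte-like barcodes of WT and at 12874 to 18536 CPM in the 5 named classes, and at 27740 CPM and 4295 to 10435 CPM in HKO. The named classes held 19 to 205 barcodes in WT and 51 to 694 in HKO, with median depths of 3678 to 7199 UMIs and 1838 to 3636 UMIs.

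Srebf1 was counted at 71.0 to 99.1 CPM in these classes in WT and at 15.3 to 24.0 CPM in HKO, and neighbouring classes in this order had overlapping intervals. In T and NK cells there were 94 Srebf1 UMIs in WT against 80.0 expected from free RNA and 33 in HKO against 16.8 expected. In macrophages there were 52 against 40.1 in WT and 23 against 5.72 in HKO. Over the 5 classes together, 205 WT UMIs stood against 164 and 73 HKO UMIs against 31.7. In WT, the expected level lay within the Poisson interval of the counts in every named class except endothelial cells (36 against 25.1). In HKO, the expected level lay below the Poisson interval of the counts in macrophages and in T and NK cells, and within it in the other 3 classes.

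Thrsp followed the free RNA most closely, with 210 UMIs against 214 expected in WT and 55 against 56.9 in HKO over the 5 classes. Me1 had 171 against 181 in WT and 112 against 109 in HKO, and Mlxipl 97 against 82.9 and 66 against 77.6. At these counts, expression of the 3 genes outside hepatocytes was not detectable over free RNA when the classes were pooled, though Mlxipl in WT macrophages (39 against 20.2) and Me1 in HKO macrophages (34 against 19.6) exceeded it. The lower Thrsp counts of HKO in these classes stood beside an expectation that was lower by as much.

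Acly, Acaca and Elovl6 exceeded the free RNA in both libraries when the classes were pooled. Acly, an enzyme of most cell types, had 69 UMIs in WT macrophages against 29.0 expected and 142 in HKO macrophages against 9.80. Acaca had 123 UMIs in WT T and NK cells against 59.1 and 131 in HKO against 34.0. Elovl6 had 67 and 75 UMIs in T and NK cells against 29.5 and 16.7. Acacb also stood higher than expected over the 5 classes, with 19 UMIs against 10.2 in WT and 25 against 9.59 in HKO, on few counts. Fasn matched the free RNA in WT (118 against 116) but not in HKO (58 against 25.7), where it exceeded the expected level in 3 of the 5 classes. The excess was therefore not particular to Acly, Acaca and Elovl6.

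For Acly the interval of the ratio between genotypes included 1 in each of the 5 classes. Acly in macrophages had 106 CPM in WT against 118 in HKO (ratio 1.12, 0.836 to 1.52), and in T and NK cells 59.3 and 53.9 CPM (ratio 0.908, 0.660 to 1.25). Acaca in T and NK cells had 101 and 76.7 CPM (ratio 0.757, 0.587 to 0.976), and free RNA is part of each of these counts. The macrophages came from 2 clusters in unlike proportions. A cluster with a median of 2071 UMIs gave 75 of 93 WT and 112 of 208 HKO macrophages, and a deeper cluster with a median of 10106 UMIs gave the other 18 and 96, so the Acly ratio in macrophages compares different mixtures. The largest T and NK cluster was not the same in the 2 libraries either. Some clusters of the described classes also held a few markers of another cell type, such as 4 stellate cell markers in the endothelial cluster. Clusters in which another cell type had at least 0.5 times as many markers as the leading one, and classes with fewer than 10 WT barcodes, are not described.

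**Figure D5:**
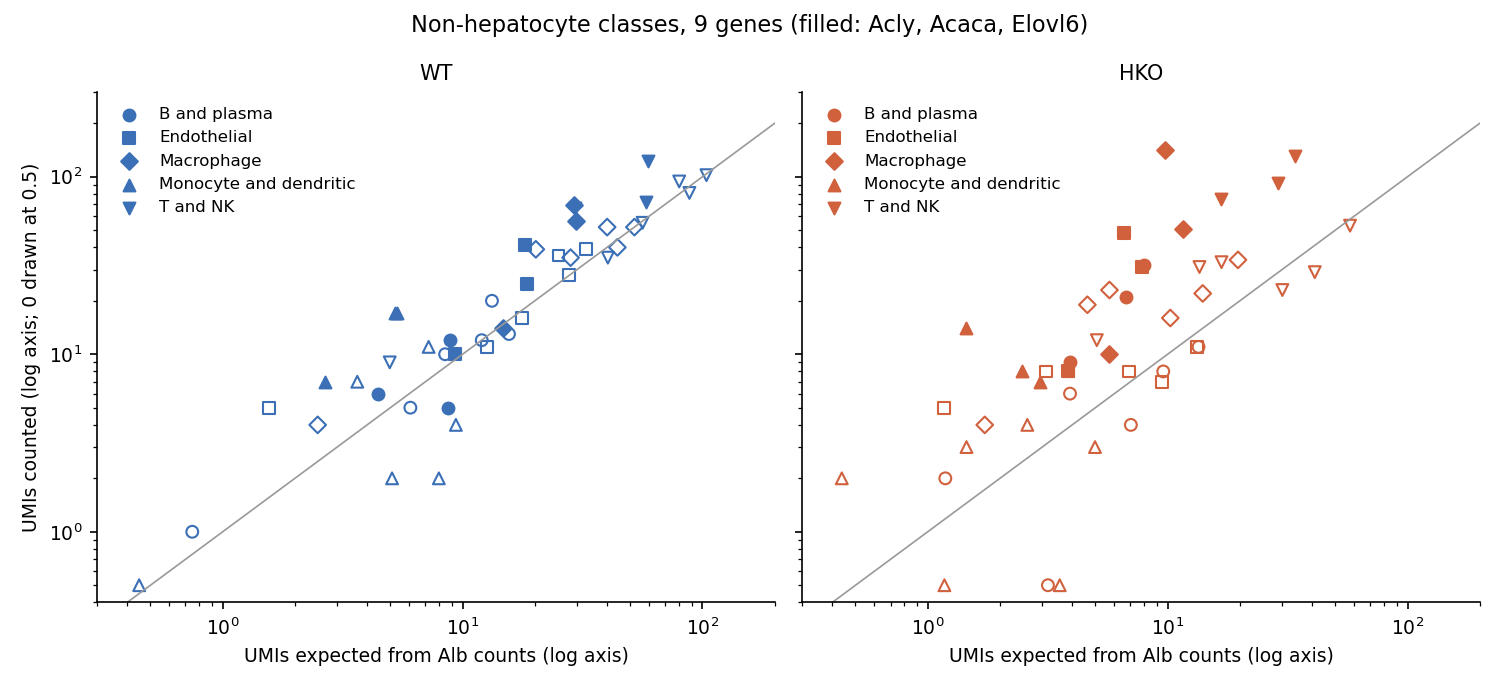
UMIs counted (y axis, log, 0 drawn at 0.5) against UMIs expected from free RNA scaled by Alb (x axis, log) for 9 lipogenic genes in 5 non-hepatocyte classes, WT on the left and HKO on the right, with the line of equality in grey. Filled symbols (Acly, Acaca, Elovl6) lie mostly above the line, up to 142 against 9.80 UMIs for Acly in HKO macrophages, while Srebf1 and Fasn lie above it in HKO macrophages (23 against 5.72 UMIs for Srebf1).

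Other genes of the pathway were read from 4 lists of 34 genes, in hepatocyte-like barcodes. The first list held Srebf2, which encodes a relative of SREBP-1, and Scap, Insig1, Insig2, Mbtps1 and Mbtps2, which hold, carry or cut the precursor. All 6 genes had ratios under 1 and 1 was at least 1.5-fold lower. Of all 7091 genes, 3613 were under 1 and 4.5% at least 1.5-fold lower. The gene past 1.5-fold was Insig2, a membrane anchor of the precursor that rises with fasting, with 624 CPM in WT against 396 in HKO (ratio 0.635, 0.620 to 0.651). Srebf2 had 24.9 and 19.9 CPM (ratio 0.7997). The interval of Mbtps2 included 1 (0.803 to 1.11), and in unmarked barcodes under 5000 UMIs Scap and Mbtps2 had ratios of 1.12 and 1.27. The list median was -0.38 on the log2 scale. Among the regulators that act with or on Srebf1 (Nr1h3, Rxra, Usf2 and others), 0 of the 8 measured passed 1.5-fold in either direction and the median was -0.06.

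Of the 8 measured genes of sugar use, citrate and NADPH supply, 4 were at least 1.5-fold lower and 0 higher, with a median of -0.41. Over all 7091 genes the shares were 4.5% lower and 2.33% higher. Mid1ip1, the close relative of Thrsp, had 35.9 CPM in WT against 16.9 in HKO (ratio 0.470, 0.418 to 0.527). Pklr, the liver pyruvate kinase, had a ratio of 0.589, ketohexokinase (Khk) 0.614 and Pgd of the pentose phosphate pathway 0.629. The list was not uniform, since Slc25a1, the mitochondrial citrate carrier, had a ratio of 1.27 (1.21 to 1.32) and Acss2, an acetyl-CoA synthetase, 1.09 (1.01 to 1.18). In unmarked barcodes under 5000 UMIs these 2 genes had ratios of 0.897 and 0.960.

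The list of desaturation, elongation and triglyceride assembly was divided. Scd1, the stearoyl-CoA desaturase that is a usual companion of Srebf1, was higher in HKO, with 3457 CPM in WT against 5535 in HKO (ratio 1.60, 1.59 to 1.61). Lpin1, which makes diacylglycerol and also acts in the nucleus, was lower, with 178 and 85.0 CPM (ratio 0.477, 0.453 to 0.502). The other 8 of 10 genes did not pass 1.5-fold, and the median was -0.15.

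Lists of genes that follow feeding state, the clock and tissue dissociation were read beside the lipogenic genes, and their part in the results was not tested. Of 8 feeding-state genes, 5 were at least 1.5-fold lower in HKO and 0 higher (median -0.67), beside 4.5% and 2.33% of all 7091 genes. Fgf21, a hepatokine of fasting and nutrient stress, had a ratio of 0.462, G6pc, the glucose-6-phosphatase of gluconeogenesis, 0.532, Angptl4 0.539, Igfbp1 0.611 and Txnip 0.647, whereas Pck1 had 1.17 and Ppargc1a 1.25 (1.16 to 1.36). Genes that are known to rise on fasting were thus found on both sides of 1, with Fgf21, G6pc, Angptl4 and Igfbp1 below it and Pck1 and Ppargc1a above it. In unmarked barcodes under 5000 UMIs Pck1 had a ratio of 0.866.

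Of 9 measured clock genes, 1 was at least 1.5-fold lower and 2 were higher, beside 4.5% and 2.33% of all 7091 genes. Arntl, which encodes BMAL1, had 24.1 CPM in WT against 9.99 in HKO (ratio 0.415, 0.356 to 0.481), and its targets Dbp and Tef had ratios of 2.35 and 1.70. Among other genes of the list, Per2 had a ratio of 1.45, Hlf 1.34, Nr1d2 1.21, Nr1d1 1.18, Clock 0.930 and Per1 0.788 (0.675 to 0.917). Of the 9 measured genes, 6 had ratios over 1 and 3 under 1. In unmarked barcodes under 5000 UMIs Hlf had a ratio of 0.857. The clock genes Npas2 and Per3, both under a mean of 10 CPM and therefore not counted, lay the farthest from 1, with 0.211 (0.160 to 0.274) and 3.10 (2.57 to 3.74). The time of day at which each pool was collected was not given in the sources used here. Of 7 measured dissociation genes, Ier2 (0.635) and Atf3 (0.657) were at least 1.5-fold lower and 0 higher, beside the same shares of all genes. In unmarked barcodes under 5000 UMIs, however, Atf3 had a ratio of 1.04.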

How the data were processed

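The files deposited by the authors held UMI counts per gene and barcode, not normalized, 1 matrix per library, made with Cell Ranger 7.1.0 per the file headers and mm10 per the labels. Options of the counting step were not given in the sources used here, and by default this version also counts introns. Barcodes shared by the libraries were not counted, since the WT barcode list was not analysed here. Barcodes with at least 500 UMIs, 300 genes and at most 50% mitochondrial UMIs were kept. Scrublet (scanpy 1.11.5) marked 13604 WT barcodes and 1 HKO barcode by its own threshold, so the top-scoring 0.8% per 1000 barcodes were left out in its place (7019 in WT, 2664 in HKO, of which 142 and 51 had at least 5000 UMIs).

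The rest were clustered together (2000 variable genes without the lipogenic genes and the related lists, 30 components, 15 neighbours, Leiden resolution 1.0, igraph 0.11.9, scikit-learn 1.9.0), and clusters with at least 3 markers of a class, detected in 10% of barcodes and 2-fold enriched, were named. UMIs were summed per library and divided by the class total (CPM). CPM had exact Poisson, shares exact Clopper-Pearson and ratios exact conditional intervals (scipy 1.17.1, numpy 2.4.6, pandas 2.3.3, Python 3.11.15), which were tested on simulated data. Barcodes are not replicates and each genotype had 1 library, so nothing was tested. A mean of 10 CPM and a fold of 1.5 were used for counts of genes. Of the other lists, genes past this fold were named, at most 6 per list, and of the genes most like Srebf1 the first 5 in each form. The genes and the lists were chosen with earlier results of these data known.

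Depth minimum, doublets, mitochondrial share, weighting, thinning, scaling, zone score, highest barcodes and clustering were varied, as were 2 settings on mitochondrial groups that were added after seeing the data. Gene positions and 3'UTRs came from GENCODE M21 (GRCm38), promoters and microRNAs from RefSeq (GRCm38.p6), and all 10 genes matched by symbol and identifier. A gene of the list of sugar use is not reported here and was left out of its counts.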

Additional observations from a re-analysis of the deposited data

Results flagged for a closer look

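Mlxipl stood on opposite sides of 1 in deep and shallow barcodes, with a ratio of HKO over WT of 0.745 at 5000 UMIs or more and 1.17 below that depth. In hepatocyte-like barcodes its ratio was 1.08 in the group of lowest mitochondrial share and 0.640 and 0.789 in the middle and high groups. Me1 had a ratio of 0.715 in the periportal group, 0.799 in the middle group and 1.08 in the pericentral group, but the zone groups were not equal between the libraries. With 1 library per genotype, none of these differences between ratios was tested.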

How the results depend on the processing

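With 1 library per genotype the limits are set by the design rather than by depth, since 686 Srebf1 UMIs in HKO already gave a narrow counting interval; Pnpla3 and the direction of Acacb (interval 0.836 to 1.15) were limited by their counts. No paired analysis was possible because each genotype had 1 library and no test was made. Across 16 alternatives the Srebf1 ratio lay between 0.205 and 0.243, and the ratios of all genes but Acacb and Mlxipl stayed below 1. The highest Srebf1 value, 0.243, came from leaving out the group of lowest mitochondrial share, a setting chosen after seeing the data, and it was the only one outside the counting interval. Mlxipl passed from 0.745 to 1.04 when barcodes of 2000 UMIs or more were taken, and the cause was not tested. That setting adds the 18301 WT and 1379 HKO barcodes of 2000 to 5000 UMIs. Acacb stayed below 1 in 9 alternatives. The number of genes at least 1.5-fold lower was 4 to 6 (Elovl6 was lost at 2000 UMIs or more and in the mean over depth ranges) and the median log2 ratio of the 10 genes -0.997 to -0.51. The median log2 ratio of the pericentral over the periportal group in WT was 0.24, and 0.58 with zones set by Cyp2e1 and Cyp2f2 alone; in HKO it was 0.95 and 1.05.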
